A study of Mus musculus with 16 samples.

Results

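The genes described here are 6 mouse genes of polyunsaturated fatty acid synthesis, the desaturases Fads1, Fads2, Fads3 and Fads6 and the elongases Elovl2 and Elovl5. They were chosen by symbol from the 27288 genes of a liver RNA sequencing table, and all 6 were among the 13256 genes with a mean of at least 10 normalised reads that were tested. The livers came from C57BL/6 mice, 8 to 10 weeks old, in 4 groups of 4 libraries. KO ethanol libraries are from mice labelled as lacking DRP1 in the liver (Dnm1l encodes DRP1, a GTPase that divides mitochondria) and put through the Gao-Binge alcohol model, in which ethanol feeding ends in a binge dose. WT ethanol libraries are from wild-type mice in the same model, and KO control and WT control libraries are from the same genotypes labelled control. How the gene was deleted, and in which cells a recombinase was active, is not given in the sources used here. The labels do not say that each library came from its own mouse, so p-values measure the spread between these libraries.

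Mammals cannot make linoleic and alpha-linolenic acid and obtain them from food. The liver turns them into longer, more unsaturated acids such as arachidonic acid and DHA by alternating desaturation and elongation on the endoplasmic reticulum. Fads2 encodes the delta-6 desaturase, which opens the route, Fads1 the delta-5 desaturase, and Elovl5 and Elovl2 the elongases that act on intermediate and on longer chains. SREBP-1c and PPAR-alpha, encoded by Srebf1 and Ppara, are known activators of these genes in rodent liver, and polyunsaturated acids themselves lower SREBP-1c activity.

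Libraries held 11425136 to 13864862 reads assigned to genes. Dnm1l had 730.1 to 949 normalised reads in KO ethanol, 697 to 778 in WT ethanol, 539 to 709 in KO control and 581 to 707 in WT control libraries. KO and WT overlapped within each treatment, and KO did not pass the test against WT among control libraries (log2 fold change -0.05, limma adjusted p = 0.825) or ethanol libraries (0.11, limma adjusted p = 0.590). With ethanol Dnm1l was called higher in KO livers (0.32, limma adjusted p = 0.0421), a call kept in 14 of 29 alternatives and lost with the replicate block (0.0556). A gene total can keep the reads of exons that were not deleted, so these values are no check on genotype, and KO means here the libraries labelled knockout. Defining hepatocyte transcripts were abundant in every library, with summed levels of the 17 measured markers between 1526317 and 3003354. KO ethanol library 1 also held pancreatic transcripts, with Ctrb1 at 2563 normalised reads, and KO ethanol library 4 had the highest Hba-a1, a haemoglobin chain of blood, at 1506. Ctrb1 was listed at 0 in all WT libraries. Adipoq, a transcript of fat, was at 9.84 in KO ethanol library 1 and 18.3 in KO ethanol library 4, and was listed at 0 in all other libraries. The part of these other tissues in the members' values was not tested.

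The 3 genes Fads1, Fads2 and Fads3 lie side by side on chromosome 19 of the mouse build GRCm38. Fads3 (ENSMUSG00000024664) spans 10041569 to 10060110 on the plus strand, Fads2 (ENSMUSG00000024665) 10062765 to 10101746 on the minus strand and Fads1 (ENSMUSG00000010663) 10182888 to 10196877 on the plus strand. Fads6 (ENSMUSG00000044788) is on chromosome 11 at 115279622 to 115297663, minus strand. Elovl2 (ENSMUSG00000021364) is on chromosome 13 at 41182381 to 41220405, minus strand, and Elovl5 (ENSMUSG00000032349) on chromosome 9 at 77917364 to 77984519, plus strand. No window of 75 bases, the read length, in the transcripts of Fads1, Fads2, Fads3, Elovl2 or Elovl5 was found in another gene's transcripts. In Fads6 101 of 6596 windows were shared, so a small part of its reads could belong elsewhere. In the GENCODE annotation the only gene overlapping a member was Mir6993, a miRNA at Fads1 on the same strand that shared no exon bases with it. The strand setting of the counting is not given, so reads of a gene and of any unannotated antisense transcript cannot be told apart.

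Promoters are shown for Fads3, Elovl2 and Elovl5, which were called lower both in KO control and in WT ethanol livers below and whose RefSeq starts lie within 21 bases of the GENCODE ones. They are from RefSeq on GRCm38.p6, with 250 bases before and 50 bases after the RefSeq start. Of the 6 genes 5 matched the promoter table. The RefSeq start of Fads2 lies 243 bases inside the GENCODE gene, so its window holds transcribed sequence and is not shown. Capitals mark the letters that were searched on both strands, the NF-Y box CCAAT, the GC box GGGCGG to which Sp1 binds, and the E box CACGTG, and on the other strand CCAAT reads ATTGG and GGGCGG reads CCGCCC. None of the marked letters overlap, and for Elovl2 the first of 2 windows in the table is shown.
Fads3, chr19:10041298-10041597, plus strand: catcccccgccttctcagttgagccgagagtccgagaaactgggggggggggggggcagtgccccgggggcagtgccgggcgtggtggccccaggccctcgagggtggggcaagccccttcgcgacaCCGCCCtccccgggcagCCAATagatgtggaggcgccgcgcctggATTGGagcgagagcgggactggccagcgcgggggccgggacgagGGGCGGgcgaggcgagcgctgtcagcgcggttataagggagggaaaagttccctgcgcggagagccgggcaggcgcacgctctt
Elovl2, chr13:41220354-41220653, minus strand: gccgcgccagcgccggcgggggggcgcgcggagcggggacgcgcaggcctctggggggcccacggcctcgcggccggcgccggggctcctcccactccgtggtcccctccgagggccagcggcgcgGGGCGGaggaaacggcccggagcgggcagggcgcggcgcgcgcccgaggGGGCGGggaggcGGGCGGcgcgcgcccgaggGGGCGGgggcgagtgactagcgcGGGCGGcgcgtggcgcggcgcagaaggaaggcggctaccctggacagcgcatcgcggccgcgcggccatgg
Elovl5, chr9:77917115-77917414, plus strand: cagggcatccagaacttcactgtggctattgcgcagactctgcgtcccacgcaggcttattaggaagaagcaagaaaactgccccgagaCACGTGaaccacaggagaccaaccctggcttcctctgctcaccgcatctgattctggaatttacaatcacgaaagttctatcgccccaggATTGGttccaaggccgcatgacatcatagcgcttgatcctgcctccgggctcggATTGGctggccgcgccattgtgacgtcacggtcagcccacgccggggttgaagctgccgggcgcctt
The Elovl2 window held 5 GC boxes, all upstream of the start. The Fads3 window held 2 NF-Y boxes and 2 GC boxes, and the Elovl5 window 2 NF-Y boxes and 1 E box. The sterol element TCACNCCAC and the repeat AGGTCANAGGTCA, the letters used for SREBP and for PPAR-alpha binding, were not found in these windows. Among all 32851 promoter windows CCAAT was in 37.4%, GGGCGG in 35.7%, CACGTG in 7.15%, TCACNCCAC in 1.24% and AGGTCANAGGTCA in 0.0396%. These are matches of letters and do not show binding.

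Per kilobase of exon, and averaged over the 16 libraries, Fads2 was the most abundant at 2652 normalised reads per kb, followed by Elovl5 at 2325, Elovl2 at 1633 and Fads1 at 1379. Fads6, a desaturase-like gene whose substrate is not established, had 262 per kb. Fads3, which in rodents acts on sphingoid bases and on trans-vaccenic acid, had 57.9 per kb. The ranges of Fads1, Fads2, Elovl2 and Elovl5 overlapped, with no value under 679 per kb, and lay above those of Fads6 (up to 355) and Fads3 (up to 193). The highest Fads3 library overlapped the lowest of Fads6, at 167 per kb.

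**Figure D1:**
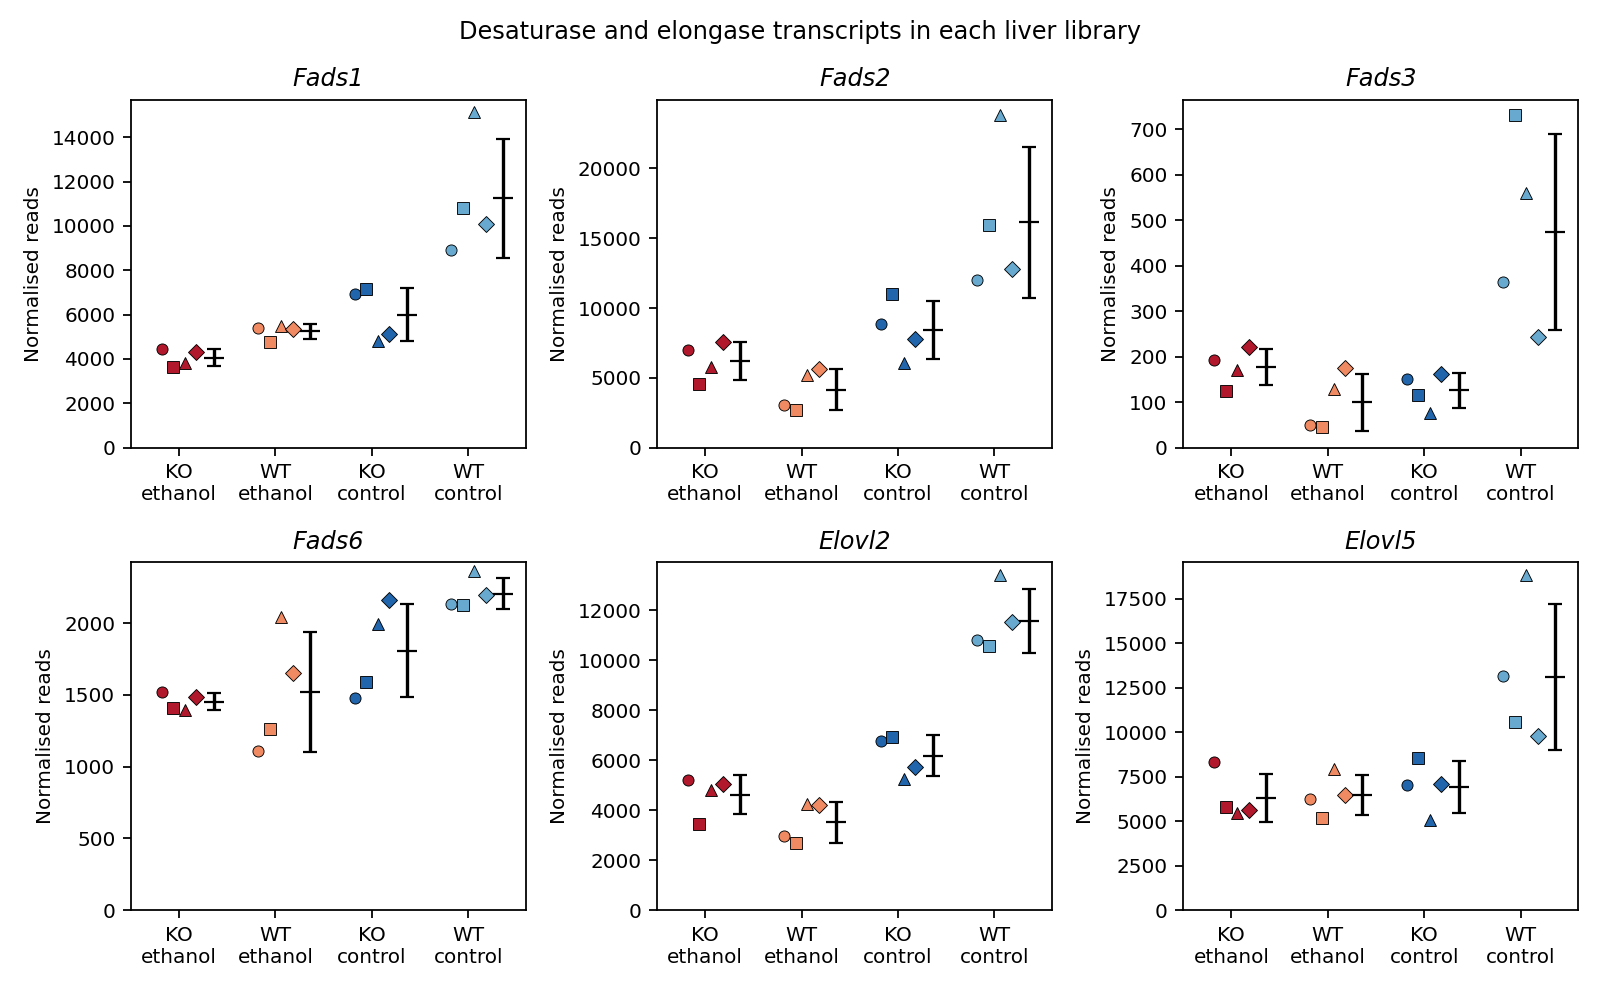
Normalised reads of the 6 genes in each of the 16 libraries, by group, with mean and SD as the black bar (n = 4). Marker shapes give the library number (circle 1, square 2, triangle 3, diamond 4), and the WT control libraries sit above the other groups in 5 of the panels, Fads6 being the exception.

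The first question was what the knockout label goes with among control livers. Both main desaturases and both elongases were lower in KO control livers. Fads1, Fads2, Elovl2 and Elovl5 were at 0.530 to 0.538 of the WT level and Fads3 at 0.280, while Fads6 did not pass the test. In all 5 of 6 members were called lower, at a Benjamini-Hochberg adjusted p under 0.05 from limma over all genes. Of all 13256 genes tested, 5.24% were called lower and 6.4% higher, 11.6% in all. The members' median log2 fold change was -0.90, against -0.01 over all genes.

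Fads2, the delta-6 desaturase, had 8865, 11028, 6031 and 7797 normalised reads in KO control libraries 1 to 4, against 12037, 15915, 23860.0 and 12802 in WT control libraries. Every KO control library was below every WT control library, and WT control library 3 stood well above the rest. The log2 fold change was -0.92 ± 0.26 (SE, limma adjusted p = 0.0319), and an exact two-sided permutation test gave p = 0.0286, the smallest that 4 against 4 allows. The limma call was lost without KO control library 3 or 4 or without WT control library 2 or 3, with log2 fold changes from -0.91 to -0.71 and adjusted p from 0.0628 to 0.101.

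Fads1, the delta-5 desaturase, had 6929, 7145, 4793 and 5136 normalised reads in KO control libraries and 8931, 10824, 15118 and 10105 in WT control libraries. The groups did not overlap, and WT control library 3 was again the highest. The log2 fold change was -0.90 ± 0.16 (SE, limma adjusted p = 0.00132).

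Elovl2, the elongase of the longer chains, had 6788, 6945, 5264 and 5739.8 normalised reads in KO control libraries and 10825, 10572, 13395 and 11514 in WT control libraries. Its WT control values were the tightest of the called members, and the lowest of them was above every KO value. The log2 fold change was -0.91 ± 0.16 (SE, limma adjusted p = 0.00183). Elovl5, which elongates the shorter of these chains, had 7019, 8549, 5032 and 7089.7 normalised reads in KO control libraries and 13154, 10558, 18851 and 9763 in WT control libraries. The groups did not overlap (log2 -0.89 ± 0.21 SE, limma adjusted p = 0.0106).

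Fads3 had 150.2, 116, 76.4 and 163 normalised reads in KO control libraries and 364, 731, 559 and 244 in WT control libraries. No KO control library reached the lowest WT control library. The log2 fold change was -1.84 ± 0.40 (SE, limma adjusted p = 0.00741), the largest of the 6 genes. Fads6 had 1478, 1593, 1993 and 2161 normalised reads in KO control libraries against 2127 to 2362 in WT control libraries. KO control library 4 lay within the WT range, and the log2 fold change of -0.30 did not pass the test (limma adjusted p = 0.235).

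The groups of Fads1, Fads2, Fads3, Elovl2 and Elovl5 did not overlap, as for 8.72% of all genes tested in this direction, and for each the exact two-sided p was 0.0286. KO control library 3 was the lowest of its group for those same 5 genes. WT control library 3 was the highest of its group for 5 of 6 members, Fads3 being highest in WT control library 2. Without WT control library 3 the log2 fold changes of Fads1, Fads3, Elovl2 and Elovl5 were still called.

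Cell-type markers moved beside these values. Among the 15 tested markers of Kupffer cells and macrophages 8 were called higher and 1 lower in KO control livers, and their summed level over 17 genes was 7838 to 12545 normalised reads in KO control and 3652 to 8003 in WT control libraries. The hepatocyte sum was 1659064 to 1865748 in KO control and 1999481 to 2370202 in WT control libraries, and 2 of 17 tested hepatocyte markers were called lower. In bulk tissue fewer cells of a type and less RNA per cell cannot be told apart. The part of these markers in the lower levels of the desaturases and elongases was not tested.

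The second question was what the ethanol model goes with in WT livers. All 6 members were called lower in WT ethanol than in WT control livers, where 19% of all genes tested were called lower and 18.9% higher, 38% in all. For all 6 the groups did not overlap, as for 17.4% of all genes in this direction. The members' median log2 fold change was -1.41, against -0.01 over all genes. The WT control libraries are the same ones that served in the comparison above.

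Fads2 had 3079, 2716, 5202 and 5625 normalised reads in WT ethanol libraries, against 12037 to 23860.0 in WT control libraries. The highest ethanol library was far below the lowest control library, and libraries 1 and 2 were lower than 3 and 4. The fold was 0.254 (95% interval 0.173 to 0.373), with log2 -1.98 ± 0.26 (SE, limma adjusted p = 3.14e-05). Elovl2 had 2947, 2693, 4265 and 4187 normalised reads in WT ethanol libraries, against 10572 to 13395 in WT control libraries. The same pair of libraries was low, and the fold was 0.299 (interval 0.235 to 0.381), with log2 -1.74 ± 0.16 (SE) and the smallest limma adjusted p of the 6, 1.31e-06.

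Fads3 had 50.4, 45.4, 130.0 and 174 normalised reads in WT ethanol libraries, against 244 to 731 in WT control libraries. It fell furthest, to 0.197 of the WT control level (interval 0.109 to 0.355, limma adjusted p = 0.000302), and it also spread most, the highest WT ethanol library holding more than 3 times the reads of the lowest. Fads1 had 5381, 4743, 5493 and 5364 normalised reads in WT ethanol libraries, a range far narrower than the 8931 to 15118 of WT control libraries. Its log2 fold change was -1.07 ± 0.16 (SE, limma adjusted p = 7.06e-05).

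Elovl5 had 6254, 5178, 7951 and 6456 normalised reads in WT ethanol libraries, against 9763 to 18851 in WT control libraries (log2 -0.99 ± 0.21 SE, limma adjusted p = 0.00148). Fads6 had 1111, 1263, 2044 and 1651 normalised reads in WT ethanol libraries, against 2127 to 2362 in WT control libraries. WT ethanol library 3 came close to the control range, and the log2 fold change of -0.58 ± 0.16 (SE, limma adjusted p = 0.00797) was not called with ethanol libraries 3 and 4 alone (-0.26, adjusted p = 0.219). For Fads2, Fads3, Fads6, Elovl2 and Elovl5 both of WT ethanol libraries 3 and 4 were above both of 1 and 2, and Fads1 was the exception. Over all genes, pairs across these sets differed more (mean chi-square per gene 70.7 to 121) than libraries 1 and 2 (14.9) or 3 and 4 (38.4). The share of all genes that split as the members did was not counted, so nothing particular to the members is read from it. In the same comparison 12 of 15 tested Kupffer cell and macrophage markers were called lower and 3 of 17 hepatocyte markers higher. Of 14 markers of sinusoidal endothelium 8 were called higher and 1 lower, with sums of 4248 to 5271 in WT ethanol and 3010.15 to 3702 in WT control libraries. Of 13 stellate cell markers 6 were called higher and 1 lower, with sums of 5801 to 6558 in WT ethanol and 4259.8 to 5172 in WT control libraries. The hepatocyte sum was 3003354 and 2791357 in WT ethanol libraries 1 and 2 and 2040389.8 and 1982635 in libraries 3 and 4, the same split of libraries in which the 5 members differed, with the members on the low side in libraries 1 and 2. The part of these markers in the members' values was not tested.

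The third question was the same ethanol comparison in livers labelled KO. Only Fads1 of the 6 members was called lower there, and the other 5 did not pass the test. Of all genes tested 9.01% were called lower and 10.2% higher, 19.2% in all, and nothing particular to the members is read from 1 of 6. The comparison shares its KO control libraries with the first one. Of the markers 2 of 15 for Kupffer cells and macrophages were called lower in KO ethanol, and 2 of 17 for hepatocytes, 5 of 14 for sinusoidal endothelium and 4 of 13 for stellate cells higher. The macrophage sum was 6933 to 8732 in KO ethanol and 7838 to 12545 in KO control libraries, and the hepatocyte sum 1526317 to 2166670 in KO ethanol and 1659064 to 1865748 in KO control libraries. Their part in the members' values was not tested. The median log2 fold change was -0.36, against -0.01 over all genes.

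Fads1 had 4431, 3642, 3829 and 4336 normalised reads in KO ethanol libraries, against 6929, 7145, 4793 and 5136 in KO control libraries. The groups did not overlap, as for 11.3% of all genes tested in this direction, but KO control libraries 3 and 4 were near the ethanol values. The log2 fold change was -0.55 ± 0.16 (SE, limma adjusted p = 0.0219). The call was lost without KO control library 1 or 2 or KO ethanol library 2 or 3 (log2 from -0.52 to -0.45, adjusted p from 0.0516 to 0.0783). The call failed too when KO ethanol libraries 1 and 4, which held transcripts of other tissues, were both left out, at a log2 fold change of -0.66 (0.0581), and with ethanol libraries 1 and 2 alone (-0.56, 0.0877) or 3 and 4 alone (-0.54, 0.120).

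Elovl2 had 5191, 3463, 4818 and 5032 normalised reads in KO ethanol libraries, against 6788, 6945, 5264 and 5739.8 in KO control libraries. The groups did not overlap and the exact two-sided p was 0.0286, while the log2 fold change of -0.43 ± 0.16 (SE) had a limma adjusted p of 0.0784. Fads2 had 6980.2, 4528, 5799.7 and 7536 normalised reads in KO ethanol libraries, inside or just under the 6031 to 11028 of KO control libraries (log2 -0.43, 95% interval -0.99 to 0.12). Elovl5, with 8325, 5772, 5449.7 and 5638 in KO ethanol libraries, lay within the 5032 to 8549 of KO control libraries (log2 -0.13, interval -0.57 to 0.30).

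Fads3 had 194, 125, 171 and 220.4 normalised reads in KO ethanol libraries, against 76.4 to 163 in KO control libraries. The fitted value was above 0 at 0.51, with an interval from -0.34 to 1.36. Fads6 was tight in KO ethanol libraries at 1398 to 1518 normalised reads, against 1478 to 2161 in KO control libraries (log2 -0.30, limma adjusted p = 0.188).

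**Figure D2:**
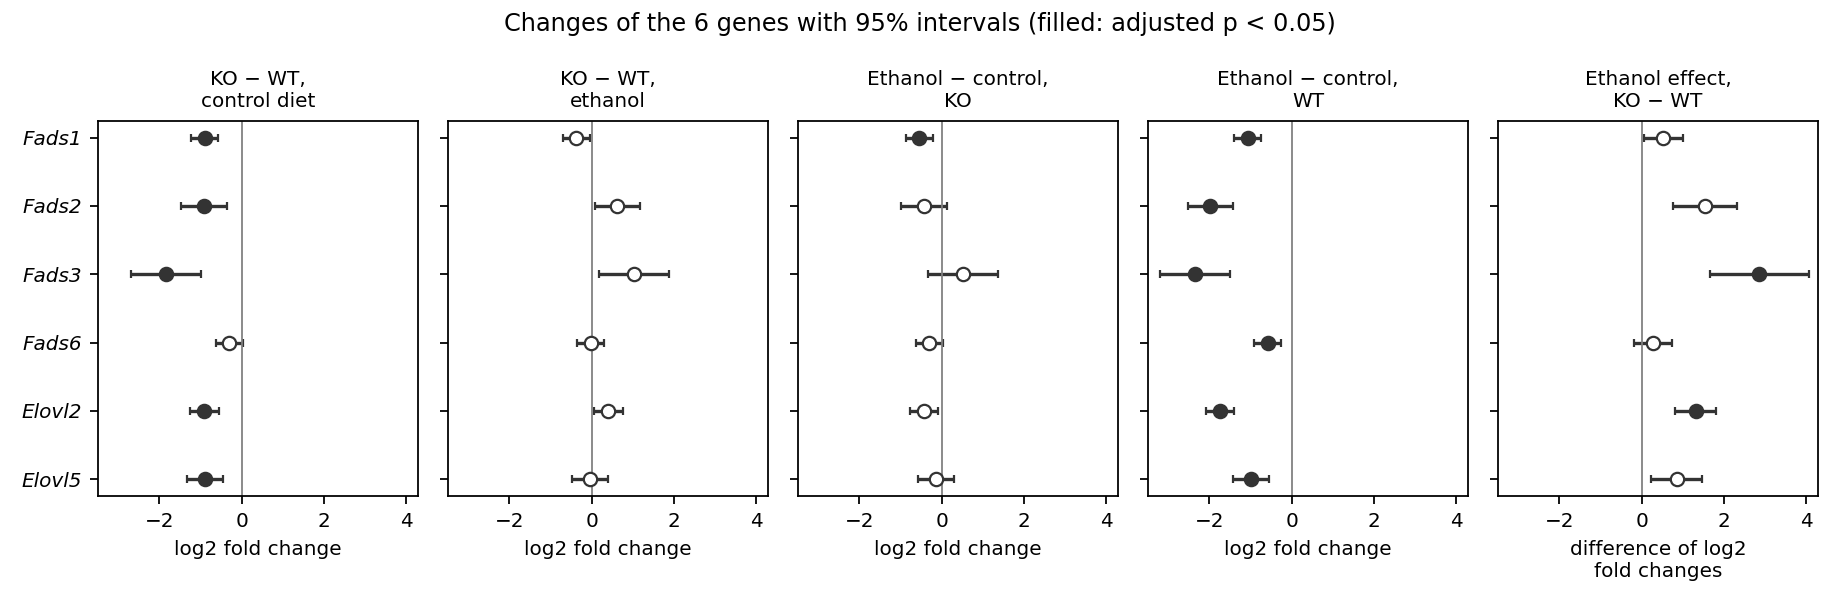
Log2 fold changes of the 6 genes for each comparison, with 95% intervals from limma, not adjusted for the number of genes. Filled points have an adjusted p under 0.05, which are 5 of 6 for KO against WT in control livers, 6 of 6 for ethanol in WT and 1 of 6 for ethanol in KO.

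Whether the ethanol effect differed between genotypes was tested as the difference of the log2 fold changes, the effect in KO minus the effect in WT. It was called for 2 of 6 members, Elovl2 and Fads3, both with a positive difference. That is not a higher level in KO livers. Against WT, Elovl2 and Fads3 were called lower in KO control (-0.91 and -1.84) and neither was called after ethanol (0.41 and 1.02). Of all genes tested 0.143% were called higher and 0.204% lower, 0.347% in all. The difference was 1.31 ± 0.23 for Elovl2 (SE, limma adjusted p = 0.0306), whose ethanol effect was -0.43 in KO and -1.74 in WT livers. It was 2.86 ± 0.57 for Fads3 (SE, limma adjusted p = 0.0417), whose effect was 0.51 in KO and -2.35 in WT livers. The values for Fads2 (1.54 ± 0.37 SE, adjusted p = 0.0861), Elovl5 (0.85 ± 0.29, 0.222), Fads1 (0.53 ± 0.22, 0.315) and Fads6 (0.28 ± 0.22, 0.616) did not pass. Of the 15 Kupffer cell and macrophage markers 1 was called in the same direction, Lyz2 (1.54, limma adjusted p = 0.0417, and 0.0646 with the replicate block), and its part was not tested.

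These calls are near the threshold. For Elovl2 the call held with edgeR (adjusted p = 0.0386), DESeq2 (7.62e-05) and the replicate block (0.0382), and was lost without the variance trend (0.0525), without any 1 of KO ethanol libraries 1 and 4 or WT ethanol libraries 1 and 2 (0.0588 to 0.0801), without both of KO ethanol libraries 1 and 4 (0.248) and with ethanol libraries 3 and 4 alone (0.0818). The Fads3 call was lost with edgeR (0.0537), with the replicate block (0.0724), without the trend (0.0842), without both of KO ethanol libraries 1 and 4 (0.296), with ethanol libraries 3 and 4 alone (0.321) and in 13 of the 16 fits that left out 1 library (0.0504 to 0.116). DESeq2 also called Fads2 (adjusted p = 0.00877). The differences stayed above 0, from 1.13 to 1.50 for Elovl2 and from 2.20 to 3.52 for Fads3 over all alternatives.

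The last comparison was between the genotypes after ethanol, in the same ethanol libraries. None of the 6 members was called by limma, edgeR or DESeq2, although 4 had an unadjusted limma p under 0.05. Among all genes tested 3.75% were called lower and 6.13% higher, 9.88% in all. Fads1 was lower in each KO ethanol library (3642 to 4431 normalised reads) than in each WT ethanol library (4743 to 5493), as were 7.38% of all genes tested, with an exact two-sided p of 0.0286, a log2 fold change of -0.37 ± 0.16 (SE) and a limma adjusted p of 0.152. The fitted values ran the other way for Fads2 (0.62, interval 0.07 to 1.18), Fads3 (1.02, 0.17 to 1.87) and Elovl2 (0.41, 0.06 to 0.75), with limma adjusted p of 0.152, 0.124 and 0.136. Here the groups overlapped. For Fads2 and Elovl2, WT ethanol libraries 3 and 4 were above only KO ethanol library 2 (4528 and 3463 normalised reads). For Fads3, WT ethanol library 3 (130.0) was above KO ethanol library 2 (125). WT ethanol library 4 (174) was above KO ethanol libraries 2 and 3 (171) for that gene. Fads3 was called without WT ethanol library 4 (adjusted p = 0.0361) and Elovl2 without KO ethanol library 2 (0.0493). Elovl5 (-0.04, interval -0.48 to 0.40) and Fads6 (-0.02, -0.35 to 0.31) had values near 0, whose sign changed when single ethanol libraries were left out. In these libraries 14 of 15 tested Kupffer cell and macrophage markers were called higher in KO ethanol, with summed levels of 6933 to 8732 in KO ethanol and 1503 to 2228 in WT ethanol libraries. The part of these cells in the comparison was not tested.

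The order of the group means differed by gene. For Fads1 it ran from KO ethanol (4059 ± 384) through WT ethanol (5245 ± 339) and KO control (6000.5 ± 1208) to WT control (11244 ± 2698), as normalised reads with SD and n = 4. For Fads2 the lowest mean was in WT ethanol (4155 ± 1470.2), followed by KO ethanol (6211 ± 1335), KO control (8430.4 ± 2089) and WT control (16154 ± 5404). Elovl2 kept the order of Fads2, with 3523 ± 819 in WT ethanol, 4626 ± 790.1 in KO ethanol, 6184 ± 814 in KO control and 11577 ± 1276 in WT control. For Elovl5 the lower 3 groups had means of 6296 ± 1359 in KO ethanol, 6459.6 ± 1141 in WT ethanol and 6922 ± 1444 in KO control and overlapped fully, against 13082 ± 4109.6 in WT control. In each of these 4 genes WT control was apart from the other groups, and neighbours among the other groups overlapped except KO ethanol and WT ethanol for Fads1, and KO ethanol and KO control for Elovl2.

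Ratios within a library do not depend on the size factor. The ratio of Fads2 to Fads1 normalised reads was 1.58, 1.24, 1.51 and 1.74 in KO ethanol libraries and 0.572, 0.573, 0.947 and 1.05 in WT ethanol libraries. It was 1.28, 1.54, 1.26 and 1.52 in KO control libraries and 1.35, 1.47, 1.58 and 1.27 in WT control libraries. The WT ethanol libraries were below every other library, and the other 3 groups overlapped. The ratio of Elovl2 to Elovl5 was 0.600 to 0.893 in KO ethanol, 0.471 to 0.649 in WT ethanol, 0.810 to 1.05 in KO control and 0.711 to 1.18 in WT control libraries. WT ethanol was below both control groups and overlapped KO ethanol. These ratios are a description and were not tested.

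**Figure D3:**
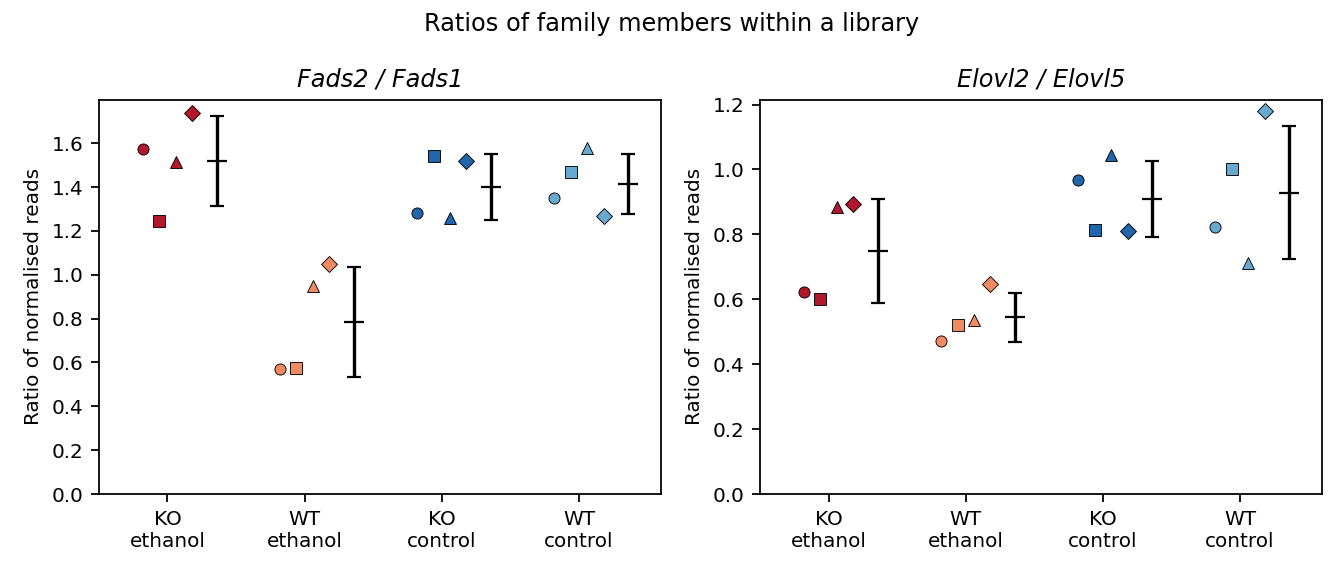
Ratio of Fads2 to Fads1 (left) and of Elovl2 to Elovl5 (right) normalised reads in each library, by group, with mean and SD (n = 4). The 4 WT ethanol libraries lie between 0.572 and 1.05 on the left, under the 1.24 to 1.74 of the other 12 libraries.

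Across the 16 libraries the gene most like Fads2 in its log2 values was Elovl2 (Pearson r = 0.97), out of 6501 genes above the median level, and the reverse held too. Within groups, as deviations from the group means, Fads2 and Elovl2 still had r = 0.90, Fads1 and Fads2 0.80 and Fads1 and Fads6 -0.11. Fads1 was most like Cyb5r3, which encodes the reductase that passes electrons to cytochrome b5 for desaturation (r = 0.96), Tlcd1 (0.96) and Coasy, a coenzyme A synthesis enzyme (0.96). Elovl5 was most like Tlcd1 (0.92), the delta-9 desaturase Scd1 (0.91) and Fads1 (0.89). The genes most like Fads3 were Adcy6 (0.89), Fads2 (0.87) and Mug-ps1 (0.86), and those most like Fads6 were Arhgap29 (0.95), Cyp2d38-ps (0.92) and Dennd5b (0.92). All these correlations are descriptions over libraries that share 4 groups and their scaling.

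Among the known regulators, Srebf1, Insig1 and Insig2 changed with ethanol in both genotypes. Srebf1 had 602 to 946 normalised reads in KO ethanol libraries against 3061 to 4735 in KO control libraries (log2 -2.42, limma adjusted p = 4.07e-05), and 545 to 1180 in WT ethanol against 2788 to 7012 in WT control libraries (-2.72, 3.75e-06). WT ethanol libraries 1 and 2 were at 561 and 545, under the 1180 and 1077 of libraries 3 and 4. Insig1, which retains SREBP in the endoplasmic reticulum and is itself a target, fell in KO (-2.40) and in WT (-2.67), while Insig2 rose in KO (2.79) and in WT (3.06). The difference of the ethanol effects was 0.30 for Srebf1 (limma adjusted p = 0.788) and did not pass. Between genotypes in control livers Srebf1 was 3061 to 4735 in KO and 2788 to 7012 in WT (limma adjusted p = 0.479), while Scap, the escort of SREBP, fell by 0.51 on the log2 scale in KO (adjusted p = 0.00295).

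Ppara encodes PPAR-alpha, the fatty acid receptor of hepatocytes. It fell in KO control to 499 to 1045 normalised reads, against 1477 to 1802 in WT control libraries (log2 -1.09, limma adjusted p = 0.00431). It fell in WT ethanol to 369 to 845 (log2 -1.53 against WT control, limma adjusted p = 6.74e-05). In KO ethanol it was 656 to 916, overlapping KO control (log2 0.04, limma adjusted p = 0.922). The difference of the ethanol effects was 1.57 (limma adjusted p = 0.0417), a call that was kept in only 2 of the 16 fits that left out 1 library, those without WT ethanol library 3 or KO control library 4. It was also lost with the replicate block (limma adjusted p = 0.0564) and edgeR (0.0578). Of the 27 regulators tested, 3 were called lower in KO control, 8 lower and 5 higher in WT ethanol, and 4 lower and 1 higher in KO ethanol against their controls. The shares over all genes were 5.24% lower in KO control, 19% lower and 18.9% higher in WT ethanol, and 9.01% lower and 10.2% higher in KO ethanol. Nothing particular to the regulators is read from these counts, and the all-gene share of each comparison also stands beside the list counts below. Mlxipl, which encodes the carbohydrate-responsive factor ChREBP, had log2 fold changes of -0.48 in KO control against WT control, -0.95 with ethanol in WT and -1.04 with ethanol in KO, and the first of these calls was kept in 12 of 27 alternatives.

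Of 21 genes of SREBP-1c and lipogenesis, 13 were called lower with ethanol in KO and 14 in WT livers, with medians of -1.01 and -1.41. Fasn, the fatty acid synthase, had log2 fold changes with ethanol of -2.15 in KO and -2.06 in WT livers, with a difference of -0.08 (limma adjusted p = 0.930). Acly, ATP citrate lyase, had -2.43 in KO and -2.77 in WT livers. Pltp, the phospholipid transfer protein, was the 1 gene of these 21 with a called difference (1.89, limma adjusted p = 0.0356), with -0.24 in KO and -2.13 in WT livers. That call was kept in 15 of 28 alternatives and 7 of the 16 fits without 1 library, and lost with the replicate block (limma adjusted p = 0.0564). In KO control livers 4 of the 21 were called lower, namely Pltp (-1.19), Fabp5 (-1.75), Scd1 (-1.43) and Fasn (-0.72), and the Scd1 call was lost without KO control library 3 or WT control library 3 and the Fasn call was kept in 6 of 27 alternatives and lost with the replicate block (limma adjusted p = 0.0507).

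**Figure D4:**
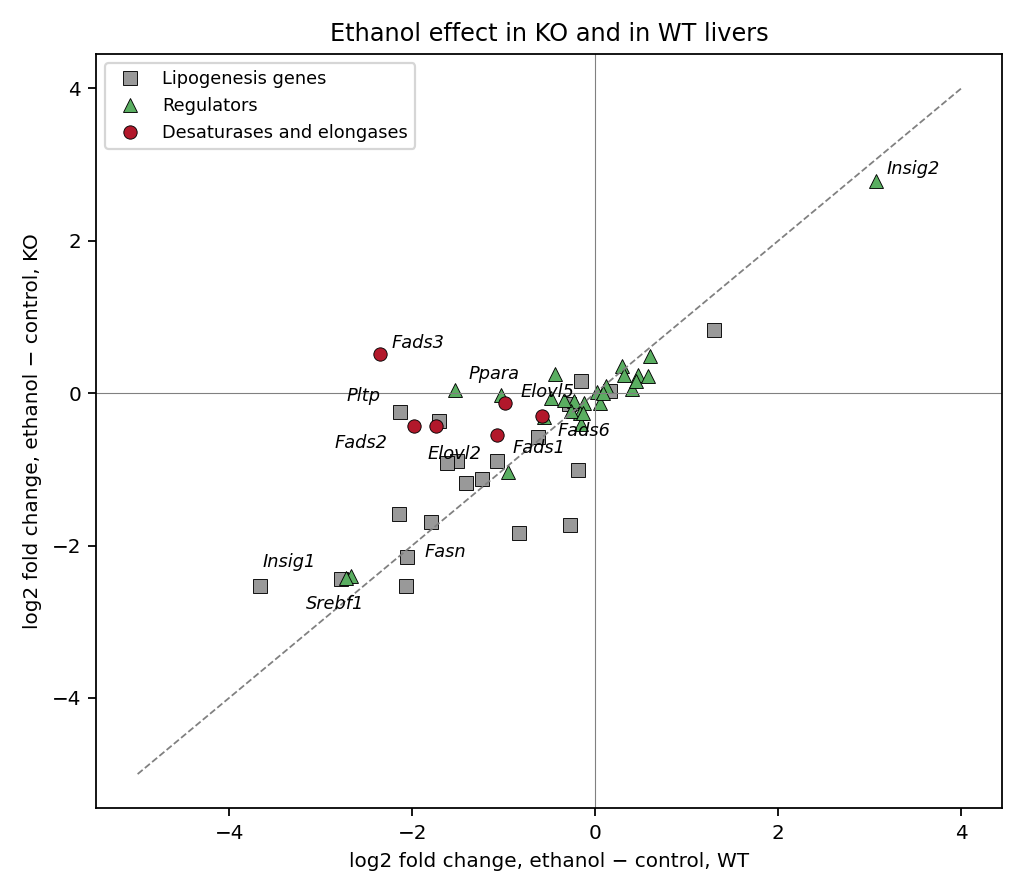
Log2 fold change with ethanol in KO livers (vertical) against that in WT livers (horizontal) for the 6 genes (circles), their regulators (triangles) and lipogenesis genes (squares), with the line of equal change dashed. Fasn, Insig1, Insig2 and Srebf1 lie near the line. All 6 genes lie above it, from Fads6 (by 0.28) to Fads3 (by 2.86), as do Pltp and Ppara. Of the 6 genes, only Elovl2 and Fads3 had a difference that passed the test.

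Desaturation and elongation depend on reductases, cytochrome b5 and the other enzymes of the elongation cycle. Of 11 tested genes of the elongation cycle and electron supply, 3 were called lower in KO control livers, namely Cyb5r3 (log2 -0.54), Tecr, the last enzyme of the elongation cycle (-0.52), and Cyb5b (-0.40). The Cyb5b call was kept in 7 of 27 alternatives and lost with the replicate block (limma adjusted p = 0.0694) and edgeR (0.0679), and the Tecr call was lost without WT control library 3. With ethanol 2 were called lower and 2 higher in KO livers, and 5 lower and 3 higher in WT livers. Cyb5b was lower in both, at -0.67 in KO and -0.97 in WT, and Hacd2, a dehydratase of the elongation cycle, higher in both, at 0.46 and 0.77. The Hacd2 call in KO was kept in 27 of 29 alternatives and lost without KO ethanol libraries 1 and 4 (limma adjusted p = 0.091). Cyb5a, also a cytochrome b5 gene, was called higher with ethanol in WT livers (0.71, limma adjusted p = 0.00157), a call lost with ethanol libraries 3 and 4 alone (0.053). Cyb5a and Cyb5b moved in opposite directions there. Which of them serves the desaturases was not tested, and no direction of the electron supply is read from them. After ethanol Cyb5a was called lower in KO than in WT livers (-0.66, limma adjusted p = 0.0101). That call was kept in 27 of 29 alternatives. It was lost without KO ethanol libraries 1 and 4 (limma adjusted p = 0.11) and with ethanol libraries 3 and 4 alone (0.284). Among the 8 tested desaturases and elongases of saturated and monounsaturated chains, Elovl6, which makes stearate from palmitate, fell with ethanol in KO (-1.59, limma adjusted p = 0.00626) and in WT livers (-2.14, 0.000274). The Elovl6 call in KO was kept in 28 of 29 alternatives and lost without KO ethanol libraries 1 and 4 (limma adjusted p = 0.0575). Scd1 fell in WT ethanol (-1.70, limma adjusted p = 0.00182) and did not pass in KO ethanol (-0.37, 0.505), with a difference of 1.33 that did not pass (0.285). Elovl7 was higher in KO control than in WT control livers (2.96, limma adjusted p = 0.00134), with log2 values from 1.74 to 4.11 over alternatives. It is a low gene, with a mean under 50 normalised reads. Elovl7 was also called higher with ethanol in WT livers (1.93, limma adjusted p = 0.00738) and in KO than in WT livers after ethanol (2.39, 0.00628).

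Other genes place, shorten or oxidise the products. Among 17 tested genes of phospholipid acyl chain remodelling 2 were called lower in KO control livers, Lpcat3, which places polyunsaturated chains in phospholipids (-0.46), and Agpat3 (-0.30). The Lpcat3 call was kept in 24 of 27 alternatives, and the Agpat3 call in 14 of 27 and not with the replicate block (limma adjusted p = 0.0552) or edgeR (0.0680). Among 18 tested genes of peroxisomal chain shortening, the last step to DHA, 2 were called lower in KO control livers, Decr2 and Abcd3, whose calls were kept in 26 and 20 of 27 alternatives. With ethanol 1 of these 18 was called lower and 3 higher in KO livers, and 7 lower and 2 higher in WT livers, and Scp2, a peroxisomal thiolase, fell by 0.72 on the log2 scale in WT livers. Of 9 tested genes of acyl-CoA activation 3 were called lower in KO ethanol, and 4 lower and 1 higher in WT ethanol. Of 19 tested oxygenases and hydrolases of polyunsaturated acids 3 were called higher in KO ethanol than in WT ethanol livers, among them Cyp4a12a (2.58, limma adjusted p = 5.58e-05), an omega-hydroxylase of arachidonic acid, which fell with ethanol in WT livers (-2.31). Its near copy Cyp4a12b was called in the same directions, and reads of the pair may be split uncertainly.

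Of 9 neighbours of Fads1, Fads2 and Fads3 on chromosome 19, 6 were tested. In KO control livers 1 was called higher, Incenp (log2 1.03), 142 kb from the nearest of the 3 genes. With ethanol in WT livers 2 were called higher, Fth1 (0.80) and Syt7 (1.30). Tmem258, 7.1 kb from Fads1, had -0.07 in KO control against WT control livers and -0.37 with ethanol in WT livers, which did not pass (limma adjusted p = 0.0531 for the second), and was called lower with ethanol in KO livers (-0.66).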

How the data were processed

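RNA was sequenced as 75 bp single reads from snap-frozen livers, per the labels' protocols. The submitters' processing notes name the build GRCm38 and the tools edgeR, HTSeq and HISAT2 (2.1.0.13). The annotation release and strand setting were not found in those sources. Each value in the deposited table is a signal, a gene's read count divided by the authors by a size factor per library. All values came out as whole reads within 0.01 of a read after multiplication by factors of 0.814 to 1.26, which equal median-of-ratios factors within 6.2e-11. Symbols, coordinates and exon lengths are from GENCODE on GRCm38, which matched 27233 of 27288 identifiers. Members and gene lists were chosen with earlier results of these data known.

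Genes were compared on log2(value + 1) by limma (3.58.1, under R 4.3.3), over the 13256 genes with a mean of at least 10, in 1 fit of 4 group means with a variance trend. Adjusted p-values are Benjamini-Hochberg over those genes, and called means under 0.05. Fold changes are on the value + 1 scale, which understates changes of low genes. Each member also had an exact two-sided permutation test in each comparison of a pair of groups, 24 in all, of which 14 gave 0.0286. Genes named beside the members are, per list and comparison, among up to 4 called genes with the smallest adjusted p, and their values are also given in other comparisons. Likeness used the 3 highest correlations per member. The fit was tested on simulated counts, and edgeR 4.0.16 and DESeq2 1.42.0 on the recovered reads, other pseudocounts, filters, factors and left-out libraries served as alternatives. All pairs of libraries within groups differed beyond counting noise (mean chi-square per gene 11.1 to 121). Same-numbered libraries of the ethanol groups deviated together (r from 0.102 to 0.246), but so did libraries 1 with 2 and 3 with 4 (0.098 to 0.199), while pairs across these sets had r from -0.25 to -0.076. This is a hint from the values only, because no label ties a number to a litter, batch or day.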

Additional observations from a re-analysis of the deposited data

Results flagged for a closer look

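Among the 4 KO ethanol libraries, Elovl5 in library 1 stood far from the other 3, at 8325 normalised reads against 5449.7 to 5772. That library also held pancreatic transcripts, and their part in the Elovl5 value was not tested. Such a gap arises by chance in about 1 in 20 groups. The ethanol effect differed between KO and WT livers by a test of the difference for Elovl2, by 1.31 log2 units, and for Fads3, by 2.86 log2 units. Both calls were near the threshold, and were kept in 21 of 28 alternatives for Elovl2 and 10 of 28 for Fads3. Both were lost without KO ethanol libraries 1 and 4.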

How the results depend on the processing

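The count of members called in control livers (KO against WT) was 4 to 5 when single libraries were left out, and 922 (without WT control library 4) to 1691 over all genes. For ethanol in WT livers all 6 members were called in every such fit, with 4251 to 5289 genes, and with ethanol libraries 3 and 4 alone 3164 genes were called. For ethanol in KO livers 0 to 1 members and 1745 to 2947 genes were called with single libraries left out, 0 members and 1003 genes without KO ethanol libraries 1 and 4, and 0 members and 1370 genes with ethanol libraries 3 and 4 alone. For KO against WT after ethanol the ranges were 0 to 1 and 848 to 1685, with 848 without KO ethanol library 3 and 857 without WT ethanol library 1. There 496 genes were called without KO ethanol libraries 1 and 4 and 434 with libraries 3 and 4 alone, and 1 member, Fads3, with libraries 1 and 2 alone. For the difference of the ethanol effects 0 to 3 members and 8 to 215 genes were called with single libraries left out, 8 without KO ethanol library 1, 9 without KO ethanol library 4 and 215 without WT ethanol library 3, and 9 other libraries moved the count to between 12 and 29. It gave 0 members and 16 genes without the trend, 1 and 30 with edgeR and 265 genes with DESeq2. It gave 264 genes with ethanol libraries 1 and 2 alone. With libraries 3 and 4 alone, or without KO ethanol libraries 1 and 4, it gave 0 members and 0 genes, with 925 and 1210 genes at an unadjusted limma p under 0.05, where fewer libraries entered. With the replicate block the difference was called for 1 member, Elovl2, and 24 genes. The Fads3 call was lost (limma adjusted p = 0.0724), and the block changed no other call of a member.

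Values that changed sign were small and uncalled. Fads6 between genotypes after ethanol ran from -0.1606 without WT ethanol library 1 to 0.1325 without WT ethanol library 3, with 0.0299 without WT ethanol library 4, 0.0043 with TMM factors and 0.3017 with libraries 1 and 2 alone. Over all alternatives the lowest value of Fads6 in that comparison was -0.3502. Its difference of ethanol effects was -0.0463 with libraries 3 and 4 alone. Elovl5 between genotypes after ethanol ran from -0.1845 without KO ethanol library 1 to 0.0627 without WT ethanol library 3, with 0.0192 and 0.0029 without KO ethanol library 3 or 4 and 0.2846 with libraries 1 and 2 alone, where its ethanol effect in KO was 0.0273. The lowest value of Elovl5 between genotypes after ethanol, over all alternatives, was -0.3701. The cause was not tested. Of all other alternatives for the members, 798 kept direction and side of the threshold, 37 lost a call and 7 gained one. Fads3 had the fewest reads of the members, 39 to 735 per library.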
